A study of Mus musculus with 4 samples.

Results

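The genes described here are the 2-oxoglutarate dependent oxygenases that lie outside the Jumonji C family, measured in the liver of NSG mice that were untreated or given JIB-04. The rule picks them by enzyme family, not by a measured value, though members were chosen with earlier results of these data known. It gives 35 genes in 10 classes, of which 34 had an entry among the 56748 genes of the deposited table. Tmlhe, which catalyses the first step of carnitine synthesis, was not analysed here. NSG mice lack mature B, T and natural killer cells, and their genotype is given as WT. RNA was sequenced from the livers of 4 mice, 2 in each group, and each library came from a separate animal. The untreated mice received no vehicle. The treated mice received JIB-04, which inhibits the Jumonji demethylases of histones, by oral gavage at 55 mg/kg, in 5 doses at 2 per week. The age and sex of the mice were not given in the sources used here. P-values set the group difference against the spread within groups of these 4 animals, with that spread moderated across all tested genes. Gavage itself cannot be told apart from the compound.

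Enzymes of this superfamily hold an iron ion at the active site and use oxygen and 2-oxoglutarate to oxidise a substrate, releasing carbon dioxide and succinate. Ascorbate keeps the iron in its active, reduced state. The substrates differ widely: the TET enzymes oxidise 5-methylcytosine in DNA, the EGLN enzymes hydroxylate the hypoxia-inducible factors (HIF) so that they are degraded, the collagen hydroxylases modify proline and lysine in procollagen, and the ALKBH enzymes with FTO remove alkyl groups from nucleic acids or act on proteins. In liver, PHYH starts the breakdown of branched phytanic acid in peroxisomes and BBOX1 completes the synthesis of carnitine. The Jumonji C histone demethylases share this chemistry.

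None of the oxygenases passed the test for a difference between JIB-04 and untreated liver. Of the 34 genes, 26 had a mean of at least 1 FPKM (fragments per kilobase of gene length, scaled to library depth) and were tested with limma on log2(FPKM + 1) in one fit over 10819 genes. With Benjamini-Hochberg adjustment over all tested genes, 0 of the 26 were called at an adjusted p under 0.05, against 232 of all 10819 (2.14%). The lowest adjusted p by limma was 0.143, for Egln3. Before adjustment, 4 of the 26 had a p under 0.05 in limma, against 15.5% of all tested genes: Egln3, P3h1 and Alkbh1 had higher means in the JIB-04 livers and Egln1 a lower one. voom on the recovered reads also called 0 of the 26, against 5.08% of all genes, with the same 4 under an unadjusted p of 0.05. The lowest adjusted p by voom was 0.0839, for P3h1, whose adjusted p ran up to 0.599 over the alternatives tried.

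The estimated changes were small on this scale. The 26 tested genes had a median log2 change of 0.03, against 0.01 over all tested genes, and 15 of them were positive, beside 51.4% of all tested genes. The median size of the change regardless of sign was 0.0824 for these genes and 0.144 over all tested genes. Standard errors ran from 0.115 to 0.182. The 95% interval of the change lay within 1 log2 unit of 0, a fold of 2, for 26 of 26 genes, and within a fold of 1.5 for 21. The added 1 shrinks the log2 change of weakly expressed genes. On the read scale, without that added 1, the voom interval lay within a fold of 2 for 22 genes and within a fold of 1.5 for 13. The values of the 2 groups did not overlap for 9 of the 26 genes, 6 higher and 3 lower with JIB-04, and for 46.4% of all tested genes. For a single gene, an exact permutation test of 2 libraries against 2 cannot give a two-sided p below 0.333.

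**Figure D1:**
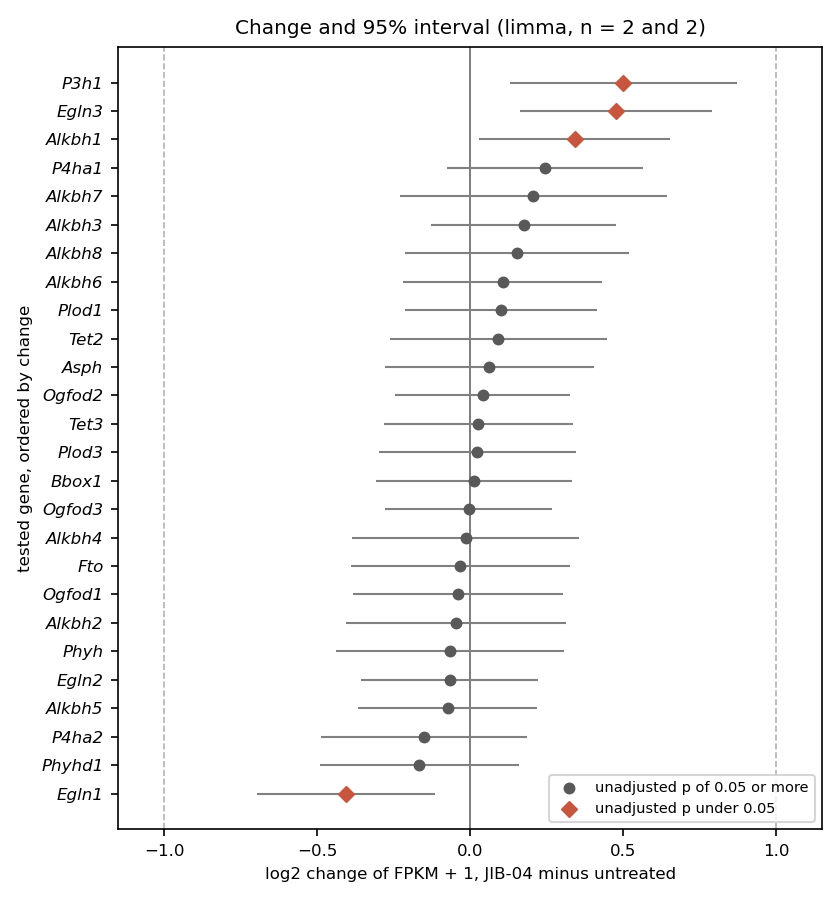
Log2 change of FPKM + 1 (JIB-04 minus untreated, x axis) for each of the 26 tested genes (y axis, ordered by change), with the 95% interval from limma, n = 2 and 2 libraries. The 4 diamonds are the genes with an unadjusted p under 0.05, and the intervals of the 26 genes lie between -0.70 and 0.87.

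Expression was dominated by the metabolic enzymes. Phyh stood at 537 and 509 FPKM in the untreated livers and at 449 and 556 FPKM in the JIB-04 livers. It alone made up 74.0% to 78.1% of the summed FPKM of the 34 genes in the 4 libraries. That sum was 694 and 659 FPKM in the untreated livers and 606 and 712 FPKM in the JIB-04 livers, the lowest and the highest library both being treated. Bbox1 came next with 5.54% to 6.60% of the sum. The remaining genes together gave 113, 114, 118 and 115 FPKM, in the order untreated 1, untreated 2, JIB-04 1, JIB-04 2, which is the order used for 4 values below. Averaged over the libraries, 4 genes were above 10 FPKM (Phyh, Bbox1, Egln2 and Alkbh5), 6 lay from 5 to 10, 16 from 1 to 5 and 8 under 1.

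**Figure D2:**
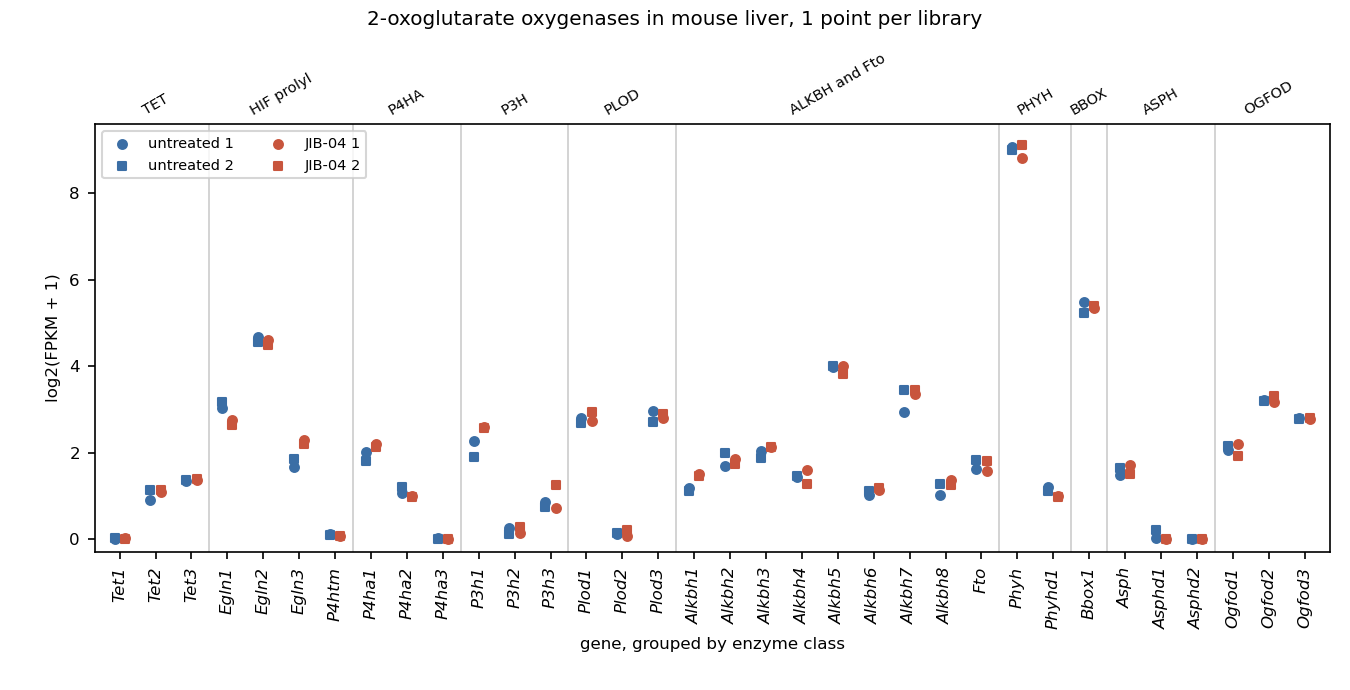
Expression as log2(FPKM + 1) (y axis) of the 34 genes grouped by enzyme class (x axis), with 1 point per library. Phyh and Bbox1 stand above the other genes in all 4 libraries, and Asphd2 was at 0 in each.

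Library depth was similar. The reads recovered from the FPKM values came to between 36469514 and 43283827 per library, and in a gene of 1 kb each read added 0.0233 to 0.0273 FPKM. The tested oxygenases held from 91 reads (Alkbh2) to 38646 reads (Phyh) in a library, and 2 of them had fewer than 100 reads in some library. Hepatocyte markers were abundant in every library, with albumin (Alb) at 46658, 46858, 31689 and 22910 FPKM, and 9 of the 10 listed hepatocyte genes had an entry, with 9 negative log2 changes. Summed markers of the other cell types were 104 to 145 FPKM for stellate cells and fibroblasts, 99.7 to 123 for endothelial cells, 370 to 496 for Kupffer cells and 35.1 to 44.4 for cholangiocytes. Positive log2 changes numbered 1 of 8 tested stellate cell and fibroblast genes, 2 of 10 endothelial and 0 of 10 Kupffer cell genes. For cholangiocytes the count was 1 of 1, and for red cells 0 of 5. Summed red cell genes were lowest in JIB-04 1 (2952, 1845, 655 and 1782 FPKM). The summed neutrophil genes were higher in both treated livers (27.3, 7.41, 45.6 and 73.1 FPKM). Of 8 neutrophil genes 2 were tested, and 1 of these had a positive log2 change. No gene of these marker lists was called by limma, and voom called Lrat and Hba-a2 lower. The part of these markers in the results below was not tested. In bulk tissue, fewer cells of a type and less RNA per cell cannot be told apart.

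The HIF prolyl hydroxylases held 2 of the 4 genes with a low unadjusted p, and the pair pointed in opposite directions. Egln1 encodes PHD2, the main HIF prolyl hydroxylase in most tissues (ENSMUSG00000031987, chromosome 8, 125635326 to 125676063, GRCm39). It stood at 7.24 and 8.01 FPKM in the untreated livers and 5.74 and 5.27 FPKM in the JIB-04 livers. Both treated livers were below both untreated ones. The means were 7.62 ± 0.543 and 5.51 ± 0.328 FPKM (SD, n = 2 each), a ratio of 0.722. Egln1 had a log2 change of -0.41 (SE 0.12, 95% interval -0.70 to -0.12), an unadjusted p of 0.0132 and an adjusted p of 0.170 in limma.

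Egln3 encodes PHD3, an isoform whose transcript is a known HIF target (ENSMUSG00000035105, chromosome 12, 54225767 to 54250646). Its values were 2.19 and 2.61 FPKM in the untreated livers, from 214 and 262 reads, and 3.87 and 3.58 FPKM in the JIB-04 livers, from 442 and 350 reads. The treated values were both above the untreated ones, with means of 2.40 ± 0.292 and 3.73 ± 0.207 FPKM (SD, n = 2 each), a ratio of 1.55. Egln3 had a log2 change of 0.48 (SE 0.13, 95% interval 0.16 to 0.79), an unadjusted p of 0.00900 and an adjusted p of 0.143 in limma.

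Egln2, which encodes PHD1, was the most abundant of the class (ENSMUSG00000058709, chromosome 7, 26858083 to 26866227). Its values of 24.5, 22.7, 23.5 and 21.4 FPKM overlapped between the groups. The means were 23.6 ± 1.26 and 22.5 ± 1.48 FPKM (SD, n = 2 each), and the log2 change of -0.07 (SE 0.12) had an adjusted p of 0.862 in limma. In every library the order was Egln2 above Egln1 above Egln3, on a scale that corrects for gene length. P4htm, a transmembrane prolyl hydroxylase of the endoplasmic reticulum, was near the detection limit with 11, 9, 7 and 7 reads (0.0771, 0.0612, 0.0420 and 0.0490 FPKM) and was not tested.

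**Figure D3:**
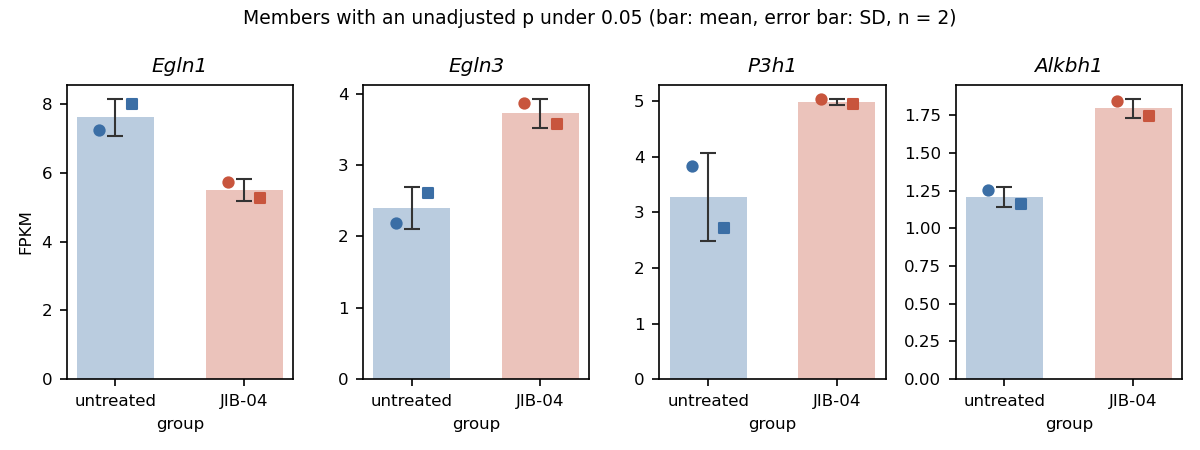
FPKM (y axis, from 0) of Egln1, Egln3, P3h1 and Alkbh1 in untreated and JIB-04 livers (x axis). Points are libraries, bars are means and error bars are SD (n = 2 each): the 2 groups do not overlap in any panel, and the largest error bar is that of P3h1 in untreated livers (0.795).

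The promoters of these 4 genes are shown because their transcripts had the lowest unadjusted p-values and because Egln1 and Egln3 are known HIF targets. HIF binds a core read as ACGTG or GCGTG, and these letters were searched on both strands in the 250 bases before each annotated start, from RefSeq's promoter table (GRCm38.p6, an older build than that of the expression table). Where ACGTG is preceded by C, it also reads as ACGTG on the other strand, so such a site counts on both. Each sequence is written 5′ to 3′ on the gene's strand, with cores in capitals (a core on the other strand appears as CACGT or CACGC). The Egln1 window is chr8:124949255-124949504 (minus strand), that of Egln3 is chr12:54203875-54204124 (minus), the first of P3h1 is chr4:119232665-119232914 (plus) and that of Alkbh1 is chr12:87443840-87444089 (minus).

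Egln1: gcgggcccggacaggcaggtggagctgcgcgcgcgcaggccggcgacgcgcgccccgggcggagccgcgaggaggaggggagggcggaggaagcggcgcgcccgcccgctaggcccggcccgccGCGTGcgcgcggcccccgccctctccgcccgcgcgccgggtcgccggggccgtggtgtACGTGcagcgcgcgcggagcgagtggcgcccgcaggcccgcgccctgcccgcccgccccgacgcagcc
Egln3: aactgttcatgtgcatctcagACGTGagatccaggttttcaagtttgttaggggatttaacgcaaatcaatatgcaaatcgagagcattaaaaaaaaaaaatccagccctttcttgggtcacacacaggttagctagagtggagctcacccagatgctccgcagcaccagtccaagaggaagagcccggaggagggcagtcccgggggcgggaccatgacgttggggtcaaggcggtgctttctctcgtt
P3h1: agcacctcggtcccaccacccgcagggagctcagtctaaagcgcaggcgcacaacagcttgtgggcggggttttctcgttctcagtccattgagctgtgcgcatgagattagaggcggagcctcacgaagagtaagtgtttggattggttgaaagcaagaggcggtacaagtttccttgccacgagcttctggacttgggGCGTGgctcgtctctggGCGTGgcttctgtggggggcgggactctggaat
Alkbh1: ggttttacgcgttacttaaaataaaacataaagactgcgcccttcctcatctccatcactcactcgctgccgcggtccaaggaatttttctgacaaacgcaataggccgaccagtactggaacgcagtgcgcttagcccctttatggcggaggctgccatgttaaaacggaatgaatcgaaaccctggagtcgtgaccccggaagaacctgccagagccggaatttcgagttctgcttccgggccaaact

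Egln1 held GCGTG 126 bases and ACGTG 68 bases before the start, and Egln3 held ACGTG 229 bases before it. P3h1 held GCGTG at 50 and at 33 bases in the window shown, and its second annotated start had ACGTG at 31 bases, with the other strand's ACGTG at 19. The Alkbh1 window held neither core. Cores were not confined to the genes shown: the Egln2 windows held 1 and 4, and those of Plod3, P4ha1 and P4ha2 held 4, 3 and 3. Of the 35 genes, 29 were found in the promoter table, and 15 of those had a core in at least 1 window. By window, 17 of 36 held a core (47.2%), beside 38.6% of all 32851 windows of that length (16.6% with ACGTG, 28.2% with GCGTG). These matches describe letters in the reference, not bound sites.

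Among the collagen hydroxylases, P3h1 had the largest limma log2 change of FPKM + 1 among the 26 tested genes, whereas Egln3 was larger by the ratio of means and by voom (0.64 against 0.63). P3h1 is the prolyl 3-hydroxylase that works in a complex with CRTAP and cyclophilin B (ENSMUSG00000028641, chromosome 4, 119090112 to 119106172). The untreated livers differed from each other, at 3.84 and 2.71 FPKM, whereas the JIB-04 livers were close, at 5.03 and 4.96 FPKM. Both treated values were above both untreated values. Means were 3.27 ± 0.795 and 5.00 ± 0.0547 FPKM (SD, n = 2 each), a ratio of 1.53. The log2 change of P3h1 was 0.50 (SE 0.16, 95% interval 0.13 to 0.87), with an unadjusted p of 0.0157 and an adjusted p of 0.185 in limma. It was 0.31 without untreated 2 and 0.69 without untreated 1, so the estimate depended on which untreated liver was kept. The other prolyl 3-hydroxylases were low: P3h2 at 0.198, 0.0854, 0.0940 and 0.220 FPKM, and P3h3 at 0.819, 0.660, 0.635 and 1.37 FPKM, where JIB-04 2 stood above the other 3 libraries.

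The alpha subunits of collagen prolyl 4-hydroxylase pointed in different directions. P4ha1, the main catalytic subunit (ENSMUSG00000019916, chromosome 10, 59159118 to 59209126), stood at 3.06 and 2.51 FPKM in untreated and 3.60 and 3.35 FPKM in JIB-04 livers. The groups did not overlap, with means of 2.78 ± 0.386 and 3.48 ± 0.177 FPKM (SD, n = 2 each). The log2 change of P4ha1 was 0.25 (SE 0.13, 95% interval -0.07 to 0.57), with an adjusted p of 0.465 in limma. P4ha2, an alternative alpha subunit, was at 1.08 and 1.30 FPKM in untreated and 0.998 and 0.952 FPKM in treated livers, also without overlap but lower (log2 change -0.15, limma adjusted p 0.696). P4ha3 had 1 read in untreated 1 and 0 reads in the other 3 libraries, where a count of 0 allows up to 3 reads, or 0.0223 to 0.0261 FPKM.

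The lysyl hydroxylases prepare collagen for glycosylation and cross-linking. Plod3, which also transfers sugars to hydroxylysine, was the most abundant of them (ENSMUSG00000004846, chromosome 5, 137015873 to 137025502). It stood at 6.74, 5.49, 5.98 and 6.44 FPKM, with the treated livers between the untreated ones. The log2 change of Plod3 was 0.02 (SE 0.14, adjusted p 0.965 in limma) and its sign was negative after rescaling without the 50 most abundant and mitochondrial genes. Plod3 overlaps Znhit1 on the opposite strand by 1003 bases, and Znhit1 averaged 12.7 FPKM. The strand setting of the counting is not given in the sources used here, so reads in that overlap cannot be assigned. Plod1 stood at 5.99, 5.42, 5.69 and 6.73 FPKM (log2 change 0.10, limma adjusted p 0.793). Plod2 had 15, 19, 13 and 32 reads (0.0759, 0.0933, 0.0562 and 0.162 FPKM).

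In the ALKBH family, Alkbh1 was the gene with a low unadjusted p. ALKBH1 is a demethylase reported to act on transfer RNA and DNA (ENSMUSG00000079036, chromosome 12, 87472610 to 87490787). Its values were 1.25 and 1.16 FPKM in the untreated livers, from 302 and 288 reads, and 1.84 and 1.75 FPKM in the JIB-04 livers, from 519 and 422 reads. The 2 groups were tight and did not overlap, with means of 1.21 ± 0.0658 and 1.79 ± 0.0660 FPKM (SD, n = 2 each), a ratio of 1.49. Alkbh1 had a log2 change of 0.34 (SE 0.13, 95% interval 0.03 to 0.65), an unadjusted p of 0.0366 and an adjusted p of 0.281 in limma. On the read scale, without the 1 added to FPKM, its voom log2 change was 0.58 with an adjusted p of 0.147, the lowest of the alternatives. With no filter on low values its limma adjusted p was 0.519.

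The RNA demethylases that remove N6-methyladenosine (m6A) did not pass the test. Alkbh5 was the most abundant gene of the family (ENSMUSG00000042650, chromosome 11, 60427207 to 60449338), at 14.8 and 15.1 FPKM in untreated and 15.2 and 13.2 FPKM in JIB-04 livers. The treated values lay on either side of the untreated ones (means 15.0 ± 0.184 and 14.2 ± 1.39 FPKM, SD, n = 2 each). Its log2 change was -0.07 (SE 0.12, adjusted p 0.850 in limma). Fto, the other m6A demethylase, stood at 2.09, 2.54, 1.97 and 2.52 FPKM, with overlapping groups (log2 change -0.03, limma adjusted p 0.956).

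The remaining ALKBH genes gave no call. Alkbh2 and Alkbh3, which repair alkylated bases, stood at 2.23, 2.97, 2.62 and 2.32 FPKM and at 3.11, 2.70, 3.41 and 3.39 FPKM. Alkbh3 was above the untreated range in both treated livers (log2 change 0.17, limma adjusted p 0.594), whereas Alkbh2 overlapped (limma adjusted p 0.932). Alkbh2 shares 795 bases with Usp30 on the opposite strand, which averaged 3.33 FPKM. Alkbh7, a mitochondrial member, was at 6.70, 9.96, 9.23 and 9.98 FPKM, where untreated 1 stood apart below the other 3 libraries (log2 change 0.21, SE 0.18, limma adjusted p 0.673). Without untreated 1 the sign of the Alkbh7 change turned, at -0.0482. Alkbh8, which modifies the wobble base of transfer RNA, stood at 1.02, 1.44, 1.57 and 1.37 FPKM (limma adjusted p 0.713). Alkbh4, a protein demethylase, was at 1.70, 1.76, 2.03 and 1.42 FPKM with the treated livers on either side (limma adjusted p 0.983). Alkbh6 was at 1.02, 1.14, 1.21 and 1.27 FPKM, higher in both treated livers by a small margin (limma adjusted p 0.792).

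The TET enzymes differed in level, and neither tested gene of the class was called. Tet3 was the highest (ENSMUSG00000034832, chromosome 6, 83339355 to 83436066), at 1.52 and 1.58 FPKM in untreated and 1.57 and 1.63 FPKM in JIB-04 livers (means 1.55 ± 0.0391 and 1.60 ± 0.0395, SD, n = 2 each). Its log2 change was 0.03 (SE 0.13, 95% interval -0.28 to 0.33), with an adjusted p of 0.957 in limma. Tet2 was at 0.874, 1.18, 1.11 and 1.20 FPKM, with untreated 1 the lowest (log2 change 0.09, limma adjusted p 0.845). Tet1 was near 0, with 2, 12, 13 and 0 reads, and the library without a read allows up to 0.00529 FPKM.

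The metabolic hydroxylases did not pass the test at levels where reads were plentiful. Phyh (ENSMUSG00000026664, chromosome 2, 4923830 to 4943541) averaged 523 ± 20.0 FPKM in untreated and 502 ± 75.9 FPKM in JIB-04 livers (SD, n = 2 each). The treated livers lay on either side of both untreated ones, so the spread within the treated pair was wider than the difference of the means. The log2 change of Phyh was -0.07 (SE 0.16, 95% interval -0.44 to 0.31), with an adjusted p of 0.906 in limma. Its relative Phyhd1, whose substrate is not established, stood at 1.29 and 1.18 FPKM in untreated and 1.01 and 0.974 FPKM in treated livers, without overlap (log2 change -0.17, limma adjusted p 0.650).

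Bbox1 (ENSMUSG00000041660, chromosome 2, 110093042 to 110144905) stood at 43.9 and 36.5 FPKM in untreated and 40.01 and 40.7 FPKM in JIB-04 livers. Both treated values fell between the untreated ones, with means of 40.2 ± 5.26 and 40.4 ± 0.514 FPKM (SD, n = 2 each). The log2 change of Bbox1 was 0.01 (SE 0.13, 95% interval -0.31 to 0.33), with an adjusted p of 0.984 in limma, and its sign turned under 3 other scalings.

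Asph hydroxylates aspartate and asparagine in EGF-like domains of secreted and surface proteins (ENSMUSG00000028207, chromosome 4, 9448069 to 9669344). It was at 1.78, 2.10, 2.29 and 1.86 FPKM, with overlapping groups (log2 change 0.06, SE 0.14, limma adjusted p 0.897). Asphd1 had 1 and 10 reads in the untreated livers and 0 in both JIB-04 livers, which allow up to 0.0419 and 0.0489 FPKM. Asphd2 had 0 reads in all 4 libraries. Of the OGFOD genes, Ogfod1 encodes a prolyl hydroxylase of a ribosomal protein. Ogfod2 was the most abundant (ENSMUSG00000023707, chromosome 5, 124250360 to 124253546), at 8.28, 8.09, 7.99 and 8.94 FPKM (log2 change 0.04, SE 0.12, limma adjusted p 0.923). Ogfod1 was at 3.18, 3.42, 3.61 and 2.80 FPKM (limma adjusted p 0.940). Ogfod3 gave the smallest change of the 26 genes, at 6.02, 5.81, 5.83 and 5.95 FPKM (limma adjusted p 0.992).

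Genes that work with these enzymes were read from the same fit, in lists chosen with earlier results of these data known. Over 11 lists, 164 different genes reported here were tested, and 4 were called by limma, 3 higher and 1 lower with JIB-04, beside 2.14% called over all tested genes, so the count of calls is near the background. Gulo, the enzyme that makes ascorbate, the cofactor of these oxygenases, fell from 216 and 204 FPKM to 106 and 103 FPKM, with no overlap. Its log2 change was -1.005 (SE 0.12, adjusted p 0.0140 in limma), and it was the only gene called among 16 of the iron and ascorbate list. Ferritin heavy chain (Fth1) had the next lowest p in that list, at 315, 331, 436 and 534 FPKM (limma adjusted p 0.125). Of the 16 genes, 4 had an unadjusted p under 0.05 in limma, beside 15.5% of all tested genes.

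Of the 25 tested genes that make or use 2-oxoglutarate and succinate, 0 were called by limma and 3 had an unadjusted p under 0.05 (median log2 change -0.01). The lowest p-values were those of cytosolic aspartate aminotransferase (Got1, 106, 104, 54.4 and 75.7 FPKM, limma adjusted p 0.111) and glutamate dehydrogenase (Glud1, 319, 349, 225 and 243 FPKM, limma adjusted p 0.125). Both stood lower in the 2 treated livers than in either untreated one.

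Genes of the HIF pathway were read next. Of 12 tested HIF subunits and turnover genes limma called 0, also with 0 at an unadjusted p under 0.05, and their median log2 change was -0.07. Hif1a was at 7.15, 8.13, 6.96 and 6.25 FPKM (limma adjusted p 0.573), and Epas1, which encodes HIF-2 alpha, at 34.2, 30.4, 41.7 and 32.3 FPKM (limma adjusted p 0.663). Of the 19 tested HIF targets reported here limma called 0, with 3 at an unadjusted p under 0.05, and their median log2 change was -0.04. Aldolase A (Aldoa) had the lowest p of these, at 20.7, 20.5, 27.3 and 30.2 FPKM (limma adjusted p 0.125). Lactate dehydrogenase A (Ldha) came next, at 239, 167, 121 and 122 FPKM (limma adjusted p 0.130), lower in both treated livers than in either untreated one.

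Collagen folding partners had the highest median log2 change of the 11 lists, 0.31 over 13 tested genes. Of these, 8 had an unadjusted p under 0.05 in limma and 2 were called higher, beside 15.5% and 2.14% of all tested genes. The 8 include Bmp1, which was lower (log2 change -0.28), and log2 changes were positive for 10 of the 13. Crtap, Serpinh1, Fkbp14 and Pcolce had log2 changes of 0.06, 0.18, -0.04 and -0.13. Those of Colgalt1, Pdia6, Hspa5 and Ppib (cyclophilin B) were 0.17, 0.49, 0.45 and 0.31. Bmp1 and these genes are named after their values were seen. The list also holds general folding proteins of the endoplasmic reticulum, such as Pdia6 and Hspa5, so its median is not particular to collagen. Colgalt2, a collagen galactosyltransferase, rose from 0.379 and 0.187 FPKM to 2.58 and 2.60 FPKM (log2 change 1.49, SE 0.15, limma adjusted p 0.00642). Its untreated mean of 0.283 FPKM was under the minimum of 1 FPKM. It therefore entered the test only through the treated livers (mean 2.59 FPKM). Pdia4, a disulfide isomerase of the endoplasmic reticulum with many client proteins besides collagen, rose from 54.4 and 57.3 FPKM to 93.2 and 89.6 FPKM (log2 change 0.70, SE 0.12, limma adjusted p 0.0398). P4hb, named here after its values were seen because it encodes the beta subunit that pairs with P4ha1, stood at 436, 424, 659 and 650 FPKM (log2 change 0.60, limma adjusted p 0.0754). Beside it, P4ha1 stood at 2.51 to 3.60 FPKM. The collagen chains themselves gave 0 calls of 8 in limma, with 3 at an unadjusted p under 0.05 (median 0.19). Col15a1 was at 0.812, 1.26, 2.29 and 2.41 FPKM (limma adjusted p 0.0738) and Col27a1 at 2.41, 3.38, 1.63 and 2.11 FPKM (limma adjusted p 0.292). Summed stellate cell and fibroblast markers were 145, 115, 104 and 113 FPKM beside these values, and 1 of their 8 tested genes had a positive log2 change.

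Carnitine acetyltransferase (Crat) was called among the 12 tested carnitine genes, at 10.6 and 6.93 FPKM in untreated and 19.7 and 19.8 FPKM in JIB-04 livers (log2 change 1.11, SE 0.19, limma adjusted p 0.0469). Shmt2, a mitochondrial serine hydroxymethyltransferase, had the next lowest p, at 42.6, 42.6, 61.1 and 67.3 FPKM (limma adjusted p 0.0675). Of the 12 carnitine genes, 4 had an unadjusted p under 0.05 in limma, beside 15.5% of all tested genes. The phytanic acid list had 0 limma calls of 14, with 3 at an unadjusted p under 0.05, led by the fatty aldehyde dehydrogenase Aldh3a2 (59.6, 48.7, 73.1 and 80.1 FPKM, limma adjusted p 0.154) and the thiolase Acaa1b (317, 237, 142 and 206 FPKM, limma adjusted p 0.229). The m6A writers and readers had 0 limma calls of 16, with 1 at an unadjusted p under 0.05, led by the writer subunits Virma (1.84, 2.11, 3.66 and 3.40 FPKM, limma adjusted p 0.0730) and Zc3h13 (limma adjusted p 0.443). DNA methylation partners had 0 limma calls of 10, with 1 at an unadjusted p under 0.05, led by Cxxc5 (14.7, 12.3, 10.2 and 9.63 FPKM, limma adjusted p 0.197) and Ogt (limma adjusted p 0.773).

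The Jumonji C oxygenases, the family JIB-04 is named as inhibiting, also gave 0 limma calls among 22 tested genes, with 1 at an unadjusted p under 0.05, a median log2 change of -0.04 and 6 positive. Jmjd6 had the lowest p, at 3.45, 3.19, 4.89 and 5.41 FPKM (limma adjusted p 0.107), and Kdm5b the next, at 1.33, 1.39, 1.88 and 1.90 FPKM (limma adjusted p 0.344). A difference between the oxygenases described here and the Jumonji C genes was not tested.

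voom on the recovered reads called 12 of these 164 related genes, beside 5.08% of all tested genes: the 4 named as called by limma, together with P4hb, Pdia3, Col15a1, Virma, Shmt2 and Jmjd6 (higher with JIB-04) and Got1 and Ldha (lower). Pdia3, another disulfide isomerase, is named only for this call.

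The 4 limma calls among the related genes depended on the libraries and on the processing. Leaving out JIB-04 1 gave limma adjusted p-values of 0.0955 for Colgalt2, 0.165 for Pdia4, 0.217 for Crat and 0.120 for Gulo. Without JIB-04 2 the same genes stood at 0.111, 0.191, 0.282 and 0.143. Pdia4 also missed the threshold without untreated 1 (0.159) or untreated 2 (0.109), and Crat without untreated 2 (0.0742). Scaling and moderation also ended calls: Crat stood at 0.0550 and 0.0503 with pseudocounts of 0.1 and 0.5, 0.0522 after removing mitochondrial and the 50 most abundant genes, 0.0628 after quantile normalization, 0.0531 after centring on the median and 0.0666 with neither trend nor robust moderation. Pdia4 stood at 0.0508 after quantile normalization and 0.0580 with neither trend nor robust moderation. With every gene above 0 tested, none of the 4 was called by limma, with adjusted p-values of 0.102 for Colgalt2, 0.137 for Gulo, 0.227 for Pdia4 and 0.288 for Crat.

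**Figure D4:**
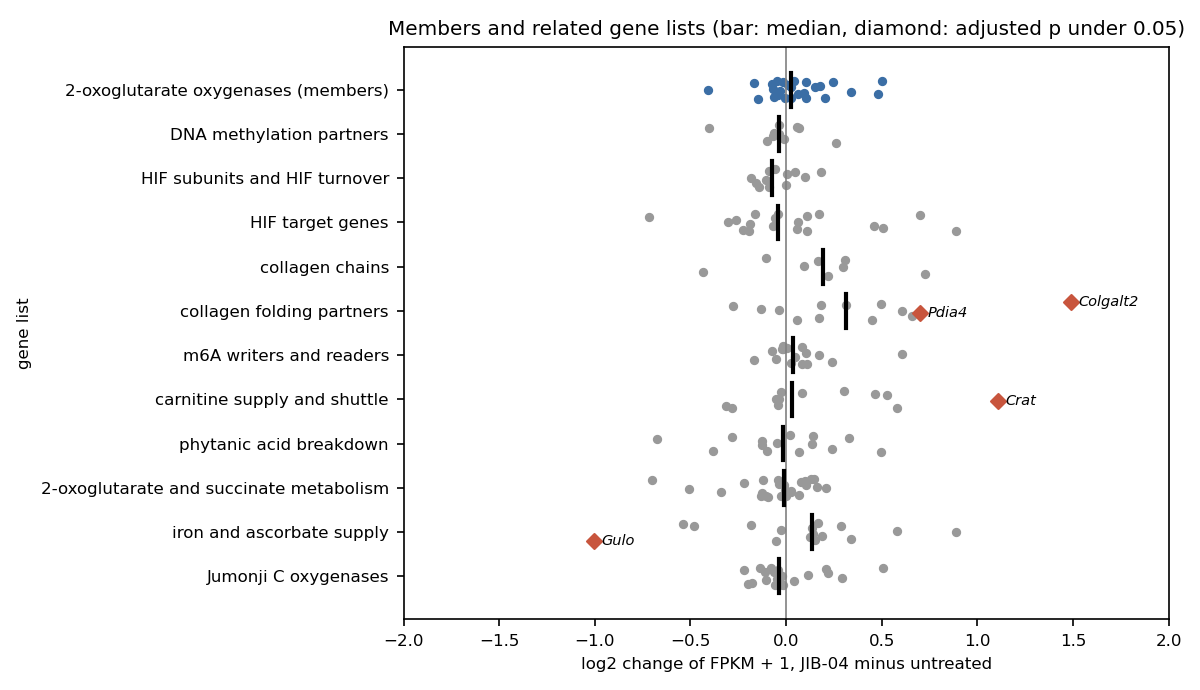
Log2 change of FPKM + 1 (JIB-04 minus untreated, x axis) of each tested gene in the oxygenase set and in the 11 related lists (y axis), with a bar at each median and diamonds at adjusted p under 0.05 (limma). The oxygenases hold no diamond, and the 4 genes called lie in 3 of the lists.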

How the data were processed

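The authors deposited 1 table of FPKM values per gene and library, with gene lengths and coordinates. The build is GRCm39 (mm39), per the submitters' processing notes. The aligner, counter, annotation release and strandedness were not given in the sources used here, and per the labels' protocols RNA came from Trizol extraction. In each library, FPKM times gene length, divided by the worth of 1 read in that library, was whole for 100% of values (tolerance 0.01), and voom used these recovered reads. limma 3.58.1 in R 4.3.3 (trend and robust moderation, two-sided) tested log2(FPKM + 1) where a gene's mean FPKM reached 1. Benjamini-Hochberg adjustment ran over 10819 genes, with calls at an adjusted p under 0.05, and the procedure was tested on simulated data. Alternatives numbered 15.

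Members and gene lists were chosen with earlier results of these data known. Each member is named. Full statistics are given for those called, those with an unadjusted p under 0.05 and the most abundant of each class. From each related list, the genes called and the 2 of lowest p are named. A gene of the HIF target list is not reported here. Intervals on reads of 0 use 3 counts and cover counting error only. The labels state no pairing of the libraries, and the main fit used none. Same-numbered deviations correlated at -0.0492 across genes. With 2 libraries per group, that value cannot decide whether the libraries were paired.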

Additional observations from a re-analysis of the deposited data

How the results depend on the processing

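The number of oxygenases called was 0 under each of the 15 alternatives, and 0 of 374 single-gene values passed the threshold in limma or voom. The sign turned in 28 values, 22 of them on leaving out a library, over 15 genes, and 11 genes kept their sign throughout, Egln1, Egln3, P3h1 and Alkbh1 among them. Leaving out 1 library at a time gave log2 changes of -0.196 to 0.103 for Alkbh2, -0.178 to 0.148 for Alkbh4, -0.166 to 0.0202 for Alkbh5, -0.0482 to 0.460 for Alkbh7, -0.0384 to 0.165 for Asph, -0.119 to 0.142 for Bbox1, -0.156 to 0.0913 for Fto, -0.180 to 0.101 for Ogfod1, -0.0311 to 0.114 for Ogfod2, -0.0274 to 0.0178 for Ogfod3, -0.220 to 0.0889 for Phyh, -0.00312 to 0.207 for Plod1, -0.103 to 0.150 for Plod3 and -0.0176 to 0.201 for Tet2. Rescaling to TPM after removing mitochondrial genes and the 50 most abundant genes gave -0.0442 for Bbox1, -0.0101 for Ogfod2, -0.0277 for Plod3 and -0.0108 for Tet3. Bbox1 was -0.0436 after quantile normalization and -0.000534 after centring on the median. The cause of these turns was not tested.

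Calls over the related lists numbered 4, and were 0 with no filter on low values, 2 after quantile normalization, 2 with neither trend nor robust moderation, 3 with either other pseudocount, after centring on the median or without the abundant genes, 5 at a mean FPKM of at least 5, 12 with voom and 0 to 3 on leaving out a library. Over all genes, the 232 calls (165 higher, 67 lower) became 211 (127 higher, 84 lower) after removing mitochondrial and the 50 most abundant genes, 20 with no filter, 550 with voom, 357 with a replicate block, 23 to 30 without a JIB-04 library and 155 to 156 without an untreated one. The replicate block called 0 oxygenases. With 2 livers a group, a lone remaining sample is assumed to vary like the other group. The changes of Egln3, P3h1 and Alkbh1 did not pass the adjusted threshold in limma or voom. With no filter, 33 oxygenases entered the fit and 0 were called.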
